A study of Mus musculus with 14 samples.

Results

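The nuclear genes for the subunits of the respiratory chain and of the ATP synthase were followed in mouse macrophages exposed to IL4. They were chosen by symbol alone: every row of the culture and marrow tables whose symbol begins with Nduf, Uqcr or Atp5, or with Cox and a digit from 4 to 8, together with Sdha, Sdhb, Sdhc, Sdhd and Cyc1. The rule took 78 of the 9474 genes, the same 78 in both tables, and used no measured value. Complex I contributed 41 genes, complex II 4, complex III 9, complex IV 11 and complex V, the ATP synthase, 13. Of the complex I genes, 6 encode assembly factors, and the remaining 72 members encode subunits or the supercomplex factor Cox7a2l. Ndufa4 carries a complex I name but was counted with complex IV, of which it is a known subunit. Of the 94 protein-coding genes that the GENCODE vM21 annotation (GRCm38) lists under the rule, 17 were not analysed here, among them Cox5b, Ndufb4, Atp5h and Atp5g2 and the isoforms Cox4i2, Cox6a2, Cox7a1 and Cox8b. The 13 protein-coding genes of mitochondrial DNA were not analysed here either.

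The study asked how IL4, a cytokine of type 2 immunity, acts on the engulfment of mouse acute myeloid leukemia (AML) cells by macrophages. The culture IL4 group held 4 libraries of macrophages that were derived from C57BL/6J bone marrow monocytes during 7 days with the growth factor CSF1 and 20 ng/mL murine IL4. The culture control group held 4 libraries of the same cells grown with CSF1 alone, at 20 ng/mL in the design text and 25 ng/mL in the growth protocol. The marrow IL4 group held 3 libraries of F4/80-positive cells sorted from the bone marrow of C57BL/6J mice 12 days after they received AML cells carrying an IL4 cDNA, and the marrow control group held 3 libraries of such cells from mice that received AML cells with the empty vector, so that all marrow libraries came from leukemic mice. No age is given, and nothing states that each library had its own culture or animal. The p-values therefore reflect the scatter among these libraries, part or all of which may be technical.

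The respiratory chain sits in the inner mitochondrial membrane. Complex I (NADH dehydrogenase) and complex II (succinate dehydrogenase, also an enzyme of the citric acid cycle) pass electrons to ubiquinone, complex III passes them to cytochrome c, and complex IV (cytochrome c oxidase) passes them to oxygen. Complexes I, III and IV pump protons, and the ATP synthase uses the gradient to make ATP, with a rotating ring of c subunits in the membrane and a catalytic F1 head in the matrix. In macrophages, IL4 is known for a programme that relies on oxidative metabolism and fatty acid use, whereas bacterial stimuli favour glycolysis.

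The deposited values are on a log2 scale, and each equals log2(reads + 0.5) with 1 added constant per gene and 1 per library. They compare libraries within a gene and not genes with each other. The whole reads could be recovered for all 78 members, and ranged from 0 to 827 per library with a median of 48, against library totals of 528638 to 848472 reads. Only Ndufaf2, an assembly factor, had 0 reads in a library, and 7 members averaged under 10 reads. The 78 genes together took 0.719% to 0.879% of the reads of the culture IL4 libraries and 0.67% to 0.875% of those of the culture controls. In marrow they took 0.824% to 0.93% of the reads of the IL4 libraries and 0.896% to 0.943% of those of the controls. In culture, the libraries numbered 4 in both groups stood apart from the other replicates: chi-square per degree of freedom of the reads was 4.17 to 5.92 for pairs that included one of them and 1.37 to 2.2 for the other replicate pairs of both culture groups. Counts were therefore also made without both.

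The scaling matters in culture. As deposited, the median of all 9474 genes was lower by 0.36 (log2) in IL4 libraries than in controls, and after each library was centred on its own median it was 0. Culture results are therefore given on both scales. In marrow the median of all genes was -0.06 as deposited and 0.04 after centring.

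Promoters were matched for 66 of the 78 members in the RefSeq table (GRCm38.p6, 250 bases before to 50 bases after the start of the gene). Both strands were searched for motifs of factors known for regulating genes of oxidative phosphorylation. The NRF1 core GCATGCGC was in the promoters of 10 members (15.2%), against 6.15% of the promoters of the genes of the tables and 2.8% of all 27025 promoters. The YY1 motif AAGATGGCG was in those of 7 members (10.6%), against 3.94% and 1.49%. The ETS motif CCGGAAG, which the factor GABP binds, was in those of 15 members (22.7%), against 21.6% and 9.12%. The SP1 motif GGGCGG was in those of 29 members (43.9%), against 67.5% and 35.9%. None of these motifs contains another. A match describes the letters of the window and is not a binding site.

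Promoters of 5 members that are described further on are shown because they set members with the same motif and opposite changes in culture beside each other. They were picked after the values were seen. Capitals mark the NRF1 core in Ndufa6 (chr15:82354242-82354541, minus strand) and Ndufa8 (chr2:36049289-36049588, minus strand), and the ETS motif, read on the other strand, in Cox8a (chr19:7217567-7217866, minus strand) and Ndufs8 (chr19:3912725-3913024, minus strand). Cox7c (chr13:86046746-86047045, minus strand) held none of the motifs searched.
Ndufa6: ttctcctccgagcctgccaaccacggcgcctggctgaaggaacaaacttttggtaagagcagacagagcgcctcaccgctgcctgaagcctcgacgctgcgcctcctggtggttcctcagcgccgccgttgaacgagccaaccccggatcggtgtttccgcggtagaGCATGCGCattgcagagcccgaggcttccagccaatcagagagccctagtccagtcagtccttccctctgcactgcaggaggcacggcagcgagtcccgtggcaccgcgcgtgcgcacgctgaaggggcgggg
Ndufa8: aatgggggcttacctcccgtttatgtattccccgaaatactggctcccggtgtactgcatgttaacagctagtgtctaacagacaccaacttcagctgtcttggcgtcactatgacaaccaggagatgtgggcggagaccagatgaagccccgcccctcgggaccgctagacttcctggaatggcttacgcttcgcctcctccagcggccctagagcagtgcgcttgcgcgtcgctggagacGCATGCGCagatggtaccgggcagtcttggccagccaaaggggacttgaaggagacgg
Cox8a: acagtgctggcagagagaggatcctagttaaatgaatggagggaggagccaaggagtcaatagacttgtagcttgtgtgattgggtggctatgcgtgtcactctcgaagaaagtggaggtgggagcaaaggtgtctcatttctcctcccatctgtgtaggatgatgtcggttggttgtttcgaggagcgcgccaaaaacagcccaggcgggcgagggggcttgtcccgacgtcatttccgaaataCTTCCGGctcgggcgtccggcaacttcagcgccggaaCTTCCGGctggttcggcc
Ndufs8: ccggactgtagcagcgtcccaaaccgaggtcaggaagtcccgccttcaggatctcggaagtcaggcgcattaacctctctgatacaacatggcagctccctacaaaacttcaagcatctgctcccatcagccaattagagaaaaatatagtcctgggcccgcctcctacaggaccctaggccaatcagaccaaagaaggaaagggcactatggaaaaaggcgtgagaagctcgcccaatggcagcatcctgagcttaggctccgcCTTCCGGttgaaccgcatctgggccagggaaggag
Cox7c: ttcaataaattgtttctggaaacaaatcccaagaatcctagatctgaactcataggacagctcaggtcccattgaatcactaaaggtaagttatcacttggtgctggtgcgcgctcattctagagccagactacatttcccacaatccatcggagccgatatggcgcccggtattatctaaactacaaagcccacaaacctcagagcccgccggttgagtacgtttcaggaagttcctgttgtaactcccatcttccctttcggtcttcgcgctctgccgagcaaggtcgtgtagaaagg
With the NRF1 core, Ndufa6 rose and Ndufa8 fell in culture as deposited, and with the ETS motif, Cox8a rose and Ndufs8 fell. The fall of Ndufa8 did not pass after centring (limma adjusted p = 0.267). The other members with these motifs were not compared, and a link between motif and change was not tested.

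In culture, 4 of the 78 genes rose with IL4 and 6 fell as deposited (limma, Benjamini-Hochberg adjusted p below 0.05 over all genes, as for every adjusted p here), while 68 did not pass the threshold. Of all 9474 genes, 40.5% were called, 7.96% as higher and 32.6% as lower. The genes that rose were Ndufa6 of complex I, Sdhd of complex II, and Cox7c and Cox8a of complex IV. Those that fell were Ndufs8, Ndufc2, Ndufa8 and Ndufb3 of complex I, and Ndufa4 and Cox4i1 of complex IV. The median log2 fold change of the members was -0.13, against -0.36 over all genes. After centring, 15 members rose and 2 fell, against 14.4% and 12.7% of all genes, and the members' median was 0.23. All 4 genes that rose as deposited also rose after centring, and of the 6 that fell Ndufs8 and Ndufa4 still fell. Of the 17 calls after centring, 8 held when any single culture library was left out (Ndufa6, Ndufa13, Sdhd, Uqcrq, Cox7c, Cox8a, Atp5b and Atp5e), and 9 did not.

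Markers of other cell types differed between the culture groups too, and their part in the results was not tested. Markers of macrophages (13 of 15 measured, none at 0 in all libraries of a group) summed to 12899 to 14287 RPM (reads scaled to a common library total) in IL4 libraries and 14718 to 16521 in controls. Of these 13 genes, 2 rose and 9 fell as deposited. The monocyte list, which holds the IL4-induced gene Chil3, summed to 28571 to 39134 RPM in IL4 libraries and 515 to 1084 in controls. Of its 5 measured genes, 2 rose and 3 fell as deposited. Eosinophil markers (3 of 8 measured, Prg2 at 0 in all IL4 libraries) summed to 605 to 2114 RPM in IL4 libraries and 13 to 25 in controls, and the erythroid markers Car2 and Tfrc (2 of 10) to 441 to 1230 and 63 to 169. Only 1 of the 3 eosinophil markers rose as deposited and 0 fell, so the higher sum does not describe that list, while both erythroid markers rose. Sums of T or NK cell (578 to 805 RPM in IL4 libraries, 97 to 429 in controls), B cell (238 to 302, 159 to 215) and dendritic cell markers (730 to 915, 305 to 477) were higher in IL4 libraries, and that of progenitor or blast markers was lower (5 to 13, 14 to 36). Only 1 of 7 T or NK cell markers was measured. As deposited, 2 of the 3 measured B cell markers rose and 1 fell, and 1 of the 2 measured progenitor or blast markers fell. Of the 3 measured dendritic cell markers, 1 rose and 2 fell, so the higher sum does not describe that list. Neutrophil markers (177 to 463 RPM in IL4 libraries, 158 to 261 in controls) and megakaryocyte or platelet markers (451 to 659, 311 to 598) overlapped. The neutrophil marker S100a9 was at 0 in all culture IL4 libraries and the dendritic cell marker Mgl2 in all culture controls.

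The changes were small. The median size of the log2 fold change, without regard to sign, was 0.2 over the members and 0.49 over all genes as deposited, and 0.29 and 0.37 after centring. The median standard error was 0.19 over the members and 0.22 over all genes. As deposited 1 member, Ndufa5, differed by more than 2-fold (log2 fold change -1.01, adjusted p = 0.0748), against 20.3% of all genes. Without the libraries numbered 4 of both culture groups, 3 members rose and 12 fell as deposited, with a median of -0.29, and 11 rose and 2 fell after centring, with a median of 0.11. Of all genes, 8.79% rose and 34.6% fell in that setting as deposited, and 15.7% rose and 15% fell after centring.

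**Figure D1:**
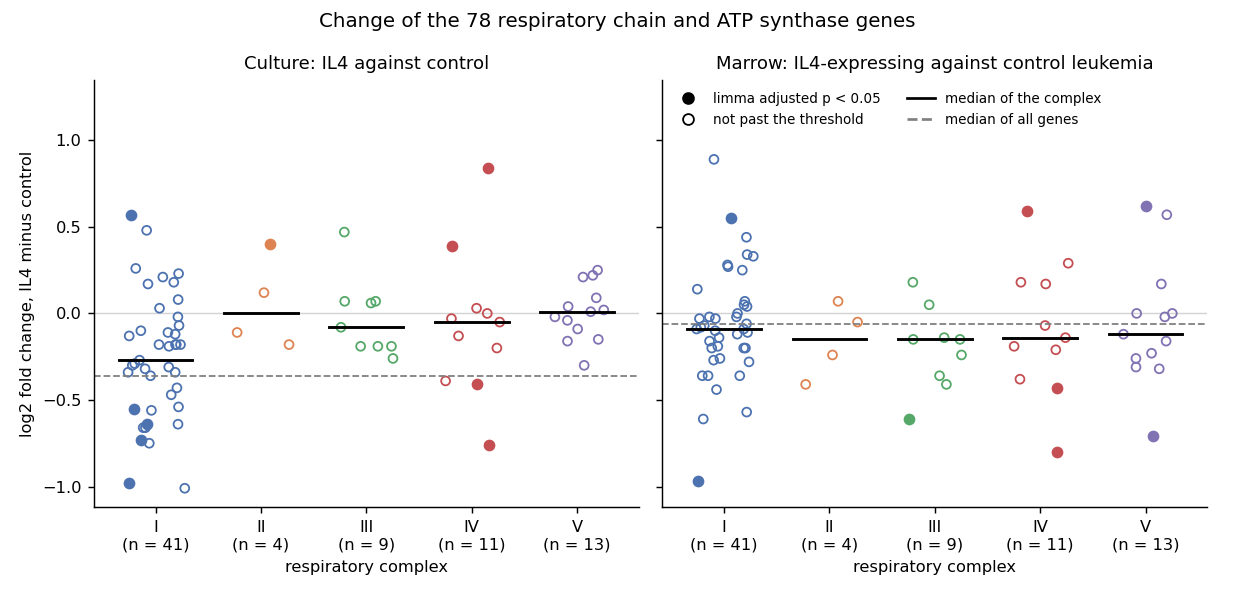
Log2 fold change (IL4 minus control) of each of the 78 genes, by respiratory complex, in culture (left) and in marrow (right), as deposited. Filled points passed limma's adjusted p below 0.05, open points did not, black lines are medians of the complex and the dashed line is the median of all 9474 genes (-0.36 in culture, -0.06 in marrow). In culture the complex I median lies at -0.27 and the medians of the other complexes between -0.08 and 0.01, while after centring all 5 lie between 0.09 and 0.37.

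By complex, the culture medians as deposited were -0.27 for complex I, 0.01 for complex II, -0.08 for complex III, -0.05 for complex IV and 0.01 for complex V. After centring they were 0.09, 0.37, 0.29, 0.31 and 0.37 in the same order. On the centred scale all 4 genes of complex II, all 9 of complex III and all 13 of complex V lay above 0, and 28 of the 41 of complex I and 8 of the 11 of complex IV did, against 4754 of all 9474 genes. Without both libraries numbered 4, the centred medians were 0.01 for complex I, 0.2 for complex II, 0.15 for complex III, 0.19 for complex IV and 0.27 for complex V, and 22 of the 41 complex I genes lay above 0. The difference between complexes was not tested.

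Within complex I in culture, 1 of the 41 genes rose (2.44%) and 4 fell (9.76%) as deposited, against 7.96% and 32.6% of all genes. Ndufa6, an accessory subunit of the arm that reaches into the matrix, had log2 values of 6.04, 5.89, 6.16 and 5.8 in IL4 libraries, against 5.39, 5.4, 5.22 and 5.62 in controls. Every IL4 value was above every control value. The log2 fold change was 0.57 ± 0.14 (SE, adjusted p = 0.00911, limma), which is 1.48-fold, and 0.93 after centring (adjusted p = 0.00123). Ndufs8, a core subunit that carries iron-sulfur clusters on the path of the electrons, had log2 values of 5.23, 5.15, 5.6 and 5.6 in IL4 libraries, against 6.28, 6.73, 6.58 and 5.88 in controls. The groups did not overlap, and the IL4 libraries held 18 to 21 reads of it, against 26 to 44 in the controls. Its log2 fold change was -0.98 ± 0.2 (adjusted p = 0.00379, limma), a fold of 0.509, and -0.61 after centring (adjusted p = 0.0265). As deposited, both calls held when any single culture library was left out. After centring that of Ndufa6 held as well, while Ndufs8 had an adjusted p of 0.0503 to 0.0757 without IL4 library 1 or 2 or control library 1, 2 or 3.

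The other 3 complex I genes that fell as deposited are accessory subunits of the membrane arm, and none of them fell after centring. Ndufa8 had 4.6, 4.37, 4.5 and 4.97 in IL4 libraries, against 5.12, 5.41, 5.54 and 4.93 in controls, so that IL4 library 4 was just above control library 4 (log2 fold change -0.64 ± 0.19, limma adjusted p = 0.0208, and 0.267 after centring). Its adjusted p was 0.0585 without IL4 library 2, 0.052 without IL4 library 3, 0.0562 without control library 2 and 0.063 without control library 3. Ndufc2 had 2.66, 3.17, 3.61 and 3.72 in IL4 libraries, against 3.91, 4.05, 4.08 and 4.03 in controls, with no overlap. Its log2 fold change was -0.73 ± 0.24 (adjusted p = 0.0325, limma), and the adjusted p was 0.0532 to 0.0756 when any library other than IL4 libraries 3 and 4 was left out. Ndufb3 changed by -0.55 ± 0.18 (adjusted p = 0.0339, limma), with overlap between the groups, and its adjusted p was 0.0735 to 0.0915 without IL4 library 1, 2 or 3 or control library 2 or 3.

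Of the other core subunits, which hold the flavin and the iron-sulfur clusters, none passed the threshold in culture as deposited. Ndufv1, which binds NADH and the flavin, had 4.28, 4.27, 4.19 and 4.55 in IL4 libraries, against 4.4, 4.13, 4.33 and 3.52 in controls. The groups overlapped, with control library 4 the lowest of all, and the log2 fold change was 0.23 ± 0.21 as deposited (adjusted p = 0.412, limma) and 0.59 after centring (adjusted p = 0.0463, and 0.0609 to 0.0978 without any library other than control library 1). Ndufs1, the subunit with most iron-sulfur clusters, had 5.65, 5.4, 5.83 and 6.26 in IL4 libraries, against 5.82, 6.04, 6.13 and 5.89 in controls. IL4 library 4 was the highest and IL4 library 2 the lowest of the 8, and the log2 fold change was -0.18 ± 0.18 (adjusted p = 0.441, limma), with a 95% interval of -0.59 to 0.22. Ndufa13, an accessory subunit known from its link to cell death, had 6.83, 6.7, 6.88 and 7.27 in IL4 libraries, against 6.57, 6.99, 6.75 and 6.31 in controls, with overlap. It passed the threshold after centring (0.63, adjusted p = 0.0135, limma) but not as deposited (0.26, adjusted p = 0.246). The 6 assembly factors had log2 fold changes of -0.66 to -0.1 as deposited, and none passed.

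In complex II, Sdhd, a membrane anchor of the enzyme, rose in culture. Its log2 values were 6.74, 6.92, 6.86 and 7.02 in IL4 libraries, against 6.43, 6.49, 6.66 and 6.35 in controls, with no overlap. The log2 fold change was 0.4 ± 0.12 (adjusted p = 0.0209, limma), or 1.32-fold, and 0.77 after centring (adjusted p = 0.000667). The adjusted p was 0.0517 without IL4 library 2, 0.0532 without control library 1 and 0.0611 without both libraries numbered 4. Sdha, the flavoprotein that oxidizes succinate, had 8.48, 8.61, 8.63 and 9.05 in IL4 libraries, against 8.55, 8.66, 8.8 and 8.28 in controls. These ranges overlapped, and the log2 fold change was 0.12 ± 0.16 as deposited (adjusted p = 0.569, limma) and 0.48 after centring (adjusted p = 0.0301). The centred adjusted p was 0.052 to 0.0727 without IL4 library 2 or 3 or control library 1, 2 or 4, and 0.0609 without both libraries numbered 4. Sdhb, the iron-sulfur subunit, had 5.11, 4.89, 5.5 and 5.69 in IL4 libraries, against 5.36, 5.5, 5.52 and 5.25 in controls, and did not pass on either scale (-0.11 and 0.25).

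No gene of complex III passed the threshold in culture as deposited. After centring Uqcrq, Uqcrc1 and Uqcrfs1 rose. Uqcrq, a small subunit in the membrane, had 5.29, 5.71, 5.65 and 5.29 in IL4 libraries, against 5.25, 4.81, 5.28 and 4.73 in controls. Both groups were close but did not overlap, with a log2 fold change of 0.47 ± 0.18 (adjusted p = 0.0595, limma) as deposited and 0.83 (adjusted p = 0.00525) after centring. Uqcrc1, a core protein of the matrix side, had 7.27, 7.39, 7.13 and 7.73 in IL4 libraries, against 7.28, 7.53, 7.37 and 7.05 in controls, and changed by 0.07 as deposited and 0.44 after centring (adjusted p = 0.049, limma). The groups of Uqcrc1 overlapped, with IL4 library 4 highest and control library 4 lowest. Uqcrfs1, the Rieske iron-sulfur protein, had 5.59, 5.28, 5.54 and 5.85 in IL4 libraries, against 5.57, 5.51, 5.49 and 5.45 in controls, and changed by 0.06 as deposited and 0.42 after centring (adjusted p = 0.0477, limma). The centred adjusted p was 0.053 to 0.105 for Uqcrc1 without any library other than IL4 library 3, and 0.0581 to 0.11 for Uqcrfs1 without any library other than IL4 library 2. Without both libraries numbered 4 it was 0.13 for Uqcrc1 and 0.0914 for Uqcrfs1. Cyc1, the cytochrome c1 subunit, had 5.44, 5.28, 5.41 and 5.44 in IL4 libraries, against 5.62, 5.69, 5.72 and 5.28 in controls. It overlapped as well and did not pass on either scale (-0.19 and 0.18, adjusted p = 0.298 and 0.317).

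In complex IV in culture, 2 of the 11 genes rose (18.2%) and 2 fell (18.2%) as deposited, against 7.96% and 32.6% of all genes. Cox7c, a small membrane subunit, had log2 values of 6.2, 5.66, 5.93 and 6.13 in IL4 libraries, against 5.41, 5.26, 4.48 and 5.4 in controls, from 39 to 57 reads and 13 to 36 reads. All IL4 libraries were above all controls, with control library 3 well under the rest. Its log2 fold change of 0.84 ± 0.22 (adjusted p = 0.0132, limma), or 1.79-fold, was the largest rise among the members as deposited, and it was 1.2 after centring (adjusted p = 0.00354). Leaving out any single culture library gave 0.62 to 0.95 as deposited, with an adjusted p of at most 0.0394. Of the 50-base words in Cox7c transcripts, 22.1% also occur in transcripts of 3 pseudogenes, so reads from these could be counted with it, and their part in the result was not tested. Cox8a, another small subunit, had 6.07, 5.91, 6.06 and 5.88 in IL4 libraries, against 5.48, 5.55, 5.72 and 5.59 in controls, again with no overlap. It rose by 0.39 ± 0.12 (adjusted p = 0.0234, limma) as deposited and 0.76 (adjusted p = 0.00106) after centring, and its adjusted p was 0.0532 to 0.0653 without IL4 library 1 or 3 or control library 1 or 2.

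Ndufa4, known as a peripheral complex IV subunit, had 7.71, 7.54, 7.81 and 8.0 in culture IL4 libraries, against 8.62, 8.61, 8.66 and 8.2 in controls. All IL4 libraries were below all controls, and control library 4 was nearest to them. The log2 fold change was -0.76 ± 0.14 (adjusted p = 0.0025, limma), a fold of 0.592, and -0.39 after centring (adjusted p = 0.0411, and 0.0764 to 0.113 without any library other than the libraries numbered 4). Cox4i1, the subunit that regulates the oxidase by binding ATP, had 7.68, 7.83, 7.64 and 7.83 in IL4 libraries, against 8.24, 8.21, 8.19 and 7.99 in controls. The groups did not overlap, and it fell by 0.41 (SE 0.11, adjusted p = 0.0128, limma) as deposited, but the difference was -0.05 (adjusted p = 0.754) after centring. Exons of Emc8 overlap Cox4i1 on the opposite strand, and the strand setting of the counting is not known here. Both calls held as deposited without any single culture library. Cox5a, a matrix-side subunit, had 5.0, 5.27, 5.16 and 5.54 in IL4 libraries, against 5.05, 5.63, 5.37 and 5.14 in controls, and changed by -0.05 with a 95% interval of -0.44 to 0.33. Cox7a2l, which links complexes III and IV into supercomplexes and of which C57BL/6J mice are known to carry a short form, had 5.85, 5.84, 5.74 and 5.76 in IL4 libraries, against 6.06, 5.94, 5.73 and 5.99 in controls, with overlap (-0.13 ± 0.12, adjusted p = 0.389, limma).

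No gene of complex V passed the threshold in culture as deposited, and the log2 fold changes of its 13 genes lay between -0.3 and 0.25. Atp5a1, the alpha subunit of the F1 head, had 7.51, 7.56, 7.56 and 7.68 in IL4 libraries, against 7.56, 7.65, 7.75 and 7.27 in controls. The groups overlapped, and the log2 fold change was 0.02 with a 95% interval of -0.26 to 0.3. Atp5b, the catalytic beta subunit, had 7.25, 7.32, 7.37 and 7.6 in IL4 libraries, against 7.11, 7.28, 7.33 and 6.93 in controls (0.22 ± 0.13, adjusted p = 0.197, limma), with overlap. Atp5e, the epsilon subunit of the F1 part, had 4.89, 5.04, 4.98 and 5.06 in IL4 libraries, against 4.71, 4.84, 5.1 and 4.31 in controls, and also overlapped (0.25 ± 0.18, adjusted p = 0.279). After centring, 4 of the 13 genes rose (30.8%), against 14.4% of all genes. These were Atp5b (0.58, adjusted p = 0.00411), Atp5e (0.61, adjusted p = 0.0157), Atp5g3 (0.57, adjusted p = 0.0321) and Atp5a1 (0.38, adjusted p = 0.0242), all in limma. The adjusted p of Atp5g3 was 0.0537 to 0.0794 without IL4 library 1 or 2 or control library 1, 2 or 3. That of Atp5a1 was 0.0556 without IL4 library 2, 0.0569 without control library 1 and 0.0563 without both libraries numbered 4.

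**Figure D2:**
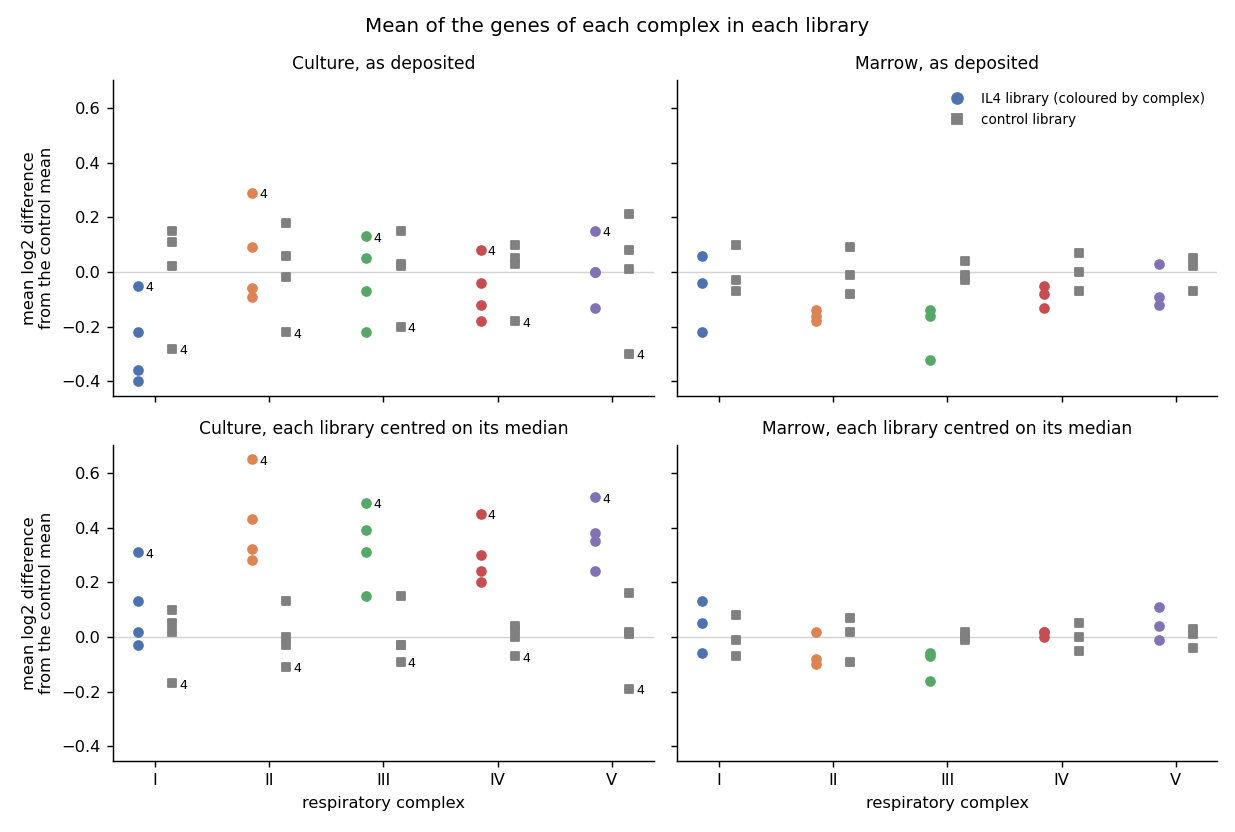
Mean over the genes of each complex in each library, as the log2 difference from the mean of the controls of that experiment. Coloured circles are IL4 libraries, grey squares control libraries, and the digit marks the libraries numbered 4. Upper panels are as deposited and lower panels after centring. In culture as deposited, IL4 library 4 is the highest of the 4 IL4 libraries for every complex and control library 4 the lowest of the 4 controls.

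The mean over the 78 genes in each library shows how far single libraries set these numbers. As deposited, the differences from the control mean were -0.28, -0.22, -0.11 and 0.04 in culture IL4 libraries 1 to 4, against 0.03, 0.09, 0.13 and -0.26 in controls 1 to 4. IL4 library 4 stood above the other IL4 libraries and control library 4 far below the other controls. After centring they were 0.09, 0.16, 0.24 and 0.4 in IL4 libraries, against 0.03, 0.03, 0.09 and -0.15 in controls, and IL4 library 1 equalled control library 3 to the second decimal. In marrow as deposited the means were -0.2, 0.0 and -0.07 in IL4 libraries, against -0.04, 0.08 and -0.04 in controls, and the groups overlapped.

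In marrow, 3 members rose in F4/80-positive cells of mice with IL4-expressing leukemia, 5 fell and 70 did not pass the threshold. Of all 9474 genes, 18.2% were called, 6.7% as higher and 11.5% as lower. Ndufv3 of complex I, Cox7a2l of complex IV and Atp5g1 of complex V rose, and Ndufc1 of complex I, Uqcrh of complex III, Ndufa4 and Cox7c of complex IV and Atp5j2 of complex V fell. The median log2 fold change of the members was -0.11, against -0.06 over all genes. After centring, the same 3 rose and Ndufc1, Uqcrh and Cox7c fell, against 9.45% and 8.92% of all genes, and the median was -0.01. Of these 6 calls after centring, that of Cox7a2l held when any single marrow library was left out, and the other 5 did not. By complex, the medians as deposited lay between -0.15 and -0.09. No member differed by more than 2-fold, against 13.7% of all genes.

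Markers of other cell types differed between the marrow groups, and their part in the results was not tested. Markers of macrophages, with 13 of 15 measured, summed to 1132 to 1846 RPM in IL4 libraries and 1073 to 1229 in controls. Of these 13 genes, 5 rose and 3 fell as deposited. In the culture libraries the same list summed to 12899 to 14287 RPM with IL4 and 14718 to 16521 in controls. Neutrophil markers, with 5 of 13 measured, summed to 45530 to 56656 RPM in IL4 libraries and 60819 to 70494 in controls. Only 1 of these 5 genes fell as deposited and 0 rose, so the lower sum does not describe the list as a whole. The 2 erythroid markers measured, Car2 and Tfrc, summed to 190 to 265 RPM in IL4 libraries and 1456 to 1521 in controls. Markers of monocytes (5 of 8 measured, on the list that holds Chil3) summed to 29181 to 30764 RPM in IL4 libraries and 8103 to 9881 in controls. Of these 5 genes, only 1 rose and 3 fell as deposited, so the higher sum does not describe the list as a whole. Progenitor or leukemic blast markers (2 of 8) summed to 210 to 231 RPM in IL4 libraries and 67 to 91 in controls, megakaryocyte or platelet markers (3 of 6) to 275 to 363 and 90 to 122, and eosinophil markers (3 of 8) to 373 to 510 and 128 to 169. As deposited, 1 of the 2, 1 of the 3 and 2 of the 3 measured genes of these lists rose, in the same order, and 0 fell. B cell markers (3 of 9) summed to 45 to 81 RPM in IL4 libraries and 158 to 177 in controls, and the 1 T or NK cell marker measured to 4 to 6 and 37 to 54. Dendritic cell markers (3 of 8) overlapped, at 324 to 545 RPM in IL4 libraries and 279 to 401 in controls. No measured marker of these lists was at 0 in all libraries of a marrow group. In these bulk libraries fewer cells of a type and less RNA per cell cannot be told apart.

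The marrow calls in complexes I and III were of small subunits. Ndufv3, a peripheral subunit next to the NADH site, had 7.64, 7.76 and 7.46 in marrow IL4 libraries, against 7.27, 6.96 and 6.97 in controls, with no overlap (0.55 ± 0.14, adjusted p = 0.0271, limma). The adjusted p was 0.0634 without IL4 library 1, 0.0712 without IL4 library 2, 0.09 without control library 2 and 0.0937 without control library 3. Ndufc1, of the membrane arm, had 2.91, 2.98 and 3.26 in IL4 libraries, against 3.92, 4.27 and 3.88 in controls, from 9 to 17 reads and 21 to 27 reads. All IL4 libraries were below all controls, and it fell by 0.97 (SE 0.23, adjusted p = 0.0205, limma), the largest fall among the members in marrow, with an adjusted p of 0.0517 without IL4 library 1 and 0.0823 without control library 2. Uqcrh, the hinge protein that helps cytochrome c dock to complex III, had 7.71, 7.53 and 7.68 in IL4 libraries, against 8.02, 8.41 and 8.32 in controls. The groups did not overlap, and it fell by 0.61 (SE 0.14, adjusted p = 0.0155, limma), with an adjusted p of 0.0598 without control library 2 and 0.0623 without control library 3.

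In complex IV in marrow, Cox7c had 5.09, 4.81 and 5.28 in IL4 libraries, against 5.82, 5.85 and 5.91 in controls, from 14 to 30 reads and 34 to 39 reads. All IL4 libraries were below all controls, the opposite order to that in culture. It fell by 0.8 (SE 0.17, adjusted p = 0.0107, limma), a fold of 0.575, and by 0.69 after centring (adjusted p = 0.0217), and no single marrow library took the adjusted p above 0.0453 as deposited, while after centring it was 0.0586 to 0.0749 without control library 1, 2 or 3. Cox7a2l had 6.03, 6.24 and 6.15 in IL4 libraries, against 5.36, 5.64 and 5.63 in controls, with no overlap (0.59 ± 0.15, adjusted p = 0.0257, limma). Its adjusted p was 0.0571 to 0.0857 without IL4 library 2 or 3 or control library 1 or 3, and 13.8% of its 50-base words occur in a pseudogene, Gm6969. Ndufa4 had 8.59, 8.72 and 8.7 in IL4 libraries, against 9.02, 9.23 and 9.06 in controls, with no overlap. It fell by 0.43 (SE 0.12, adjusted p = 0.0345, limma), the direction it also took in culture, but its adjusted p was 0.0518 to 0.116 when any single marrow library was left out and 0.0787 after centring.

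Cox4i1 had 8.1, 8.04 and 8.06 in marrow IL4 libraries, against 7.91, 7.9 and 7.87 in controls. The groups did not overlap, but the log2 fold change of 0.17 ± 0.11 did not pass (adjusted p = 0.313, limma), while the authors' deposited table gives a q-value of 0.0344 for it, the only member under 0.05 there. Cox5a had 5.52, 5.78 and 5.47 in IL4 libraries, against 5.05, 5.62 and 5.25 in controls, with overlap and a change of 0.29 (95% interval -0.14 to 0.72). Cox8a and Sdhd, which rose in culture, changed by 0.18 and 0.07 in marrow (adjusted p = 0.433 and 0.819, limma).

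In complex V in marrow, the genes for the c subunit of the rotor ring, which encode the same mature protein, did not share a direction. Atp5g1 had 8.81, 9.09 and 9.1 in IL4 libraries, against 8.11, 8.3 and 8.74 in controls, from 19 to 34 reads and 13 to 22 reads. The groups were close but did not overlap, and it rose by 0.62 (SE 0.17, adjusted p = 0.0382, limma). Its adjusted p was 0.0914 without IL4 library 2, 0.113 without IL4 library 3 or control library 2, 0.12 without control library 1, and 0.114 with voom on the recovered reads, and 10.2% of its 50-base words occur in transcripts of other genes. Atp5g3 had a log2 fold change of -0.23 (adjusted p = 0.25), and the difference between the genes was not tested. Atp5j2, the f subunit of the membrane part, had 3.71, 4.15 and 4.03 in IL4 libraries, against 4.65, 4.81 and 4.57 in controls, with no overlap. It fell by 0.71 (SE 0.2, adjusted p = 0.0385, limma), but its adjusted p was 0.0786 to 0.123 without any library other than IL4 library 2, and 0.0582 after centring. Atp5a1 had 7.72, 7.83 and 7.82 in IL4 libraries, against 7.78, 7.79 and 7.8 in controls, a change of 0.0 with a 95% interval of -0.25 to 0.25. Atp5b had 7.61, 7.96 and 7.73 in IL4 libraries, against 7.53, 7.63 and 7.64 in controls, and overlapped (0.17 ± 0.13, adjusted p = 0.427, limma).

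In marrow, more members separated the groups than passed the test. The 3 IL4 libraries were all above the 3 controls for 9 members, a pattern seen in 15.5% of all genes, and all below them for 15, a pattern seen in 22.1%. Among those below were Sdha, with 8.15, 8.33 and 8.34 in IL4 libraries, against 8.5, 8.55 and 8.51 in controls (-0.24 ± 0.11, adjusted p = 0.178, limma), Sdhb (-0.41, adjusted p = 0.174) and Uqcrfs1 (-0.36, adjusted p = 0.198). Sdhb had 4.76, 4.7 and 4.84 in IL4 libraries, against 4.85, 5.42 and 5.26 in controls, so that IL4 library 3 and control library 1 nearly met. Ndufv1 was among those above, with 4.91, 5.13 and 5.0 in IL4 libraries, against 4.58, 4.73 and 4.69 in controls (0.34 ± 0.17, adjusted p = 0.186, limma). The groups overlapped for other members with a central role. Ndufs1 had 5.58, 5.73 and 6.17 in IL4 libraries, against 6.01, 6.21 and 6.1 in controls (-0.28 ± 0.18, adjusted p = 0.317). Uqcrc1 had 7.51, 7.78 and 7.66 in IL4 libraries, against 7.82, 7.96 and 7.61 in controls (-0.15 ± 0.14, adjusted p = 0.518). Cyc1 had 5.87, 6.3 and 6.2 in IL4 libraries, against 6.18, 6.44 and 6.2 in controls (-0.15 ± 0.16, adjusted p = 0.57), and IL4 library 1 was the lowest of the 6. In culture the 4 IL4 libraries were all above the 4 controls for 5 members, against 7.49% of all genes, and all below for 4, against 30.2%.

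The responses of culture and marrow were then compared directly, as the marrow log2 fold change minus the culture log2 fold change in a single limma model over all 14 libraries. As deposited, 3 members had a higher response in marrow (Ndufs8, Cox7a2l and Cox4i1) and 3 a lower response (Cox7c, Ndufa6 and Uqcrh), while 23.1% of all genes were called, 16.6% as higher and 6.45% as lower. After centring, 1 was higher, Ndufs8, and 8 were lower, Cox7c, Ndufc1, Ndufb5, Ndufa6, Uqcrh, Atp5g3, Uqcrfs1 and Sdha, against 9.5% and 9.38% of all genes. Of the 6 called as deposited, Ndufs8, Cox7c, Ndufa6 and Uqcrh were called on both scales. Of the 9 calls after centring, those of Cox7c, Ndufa6 and Uqcrh held when any single library was left out, and the other 6 did not. As deposited, 25 of the 78 members lay above 0 in culture and 25 in marrow. By log2 fold changes rounded to 2 decimals, 29 members had opposite signs in culture and marrow. The share of all genes with opposite signs was not counted, so this number is not a result about the members.

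**Figure D3:**
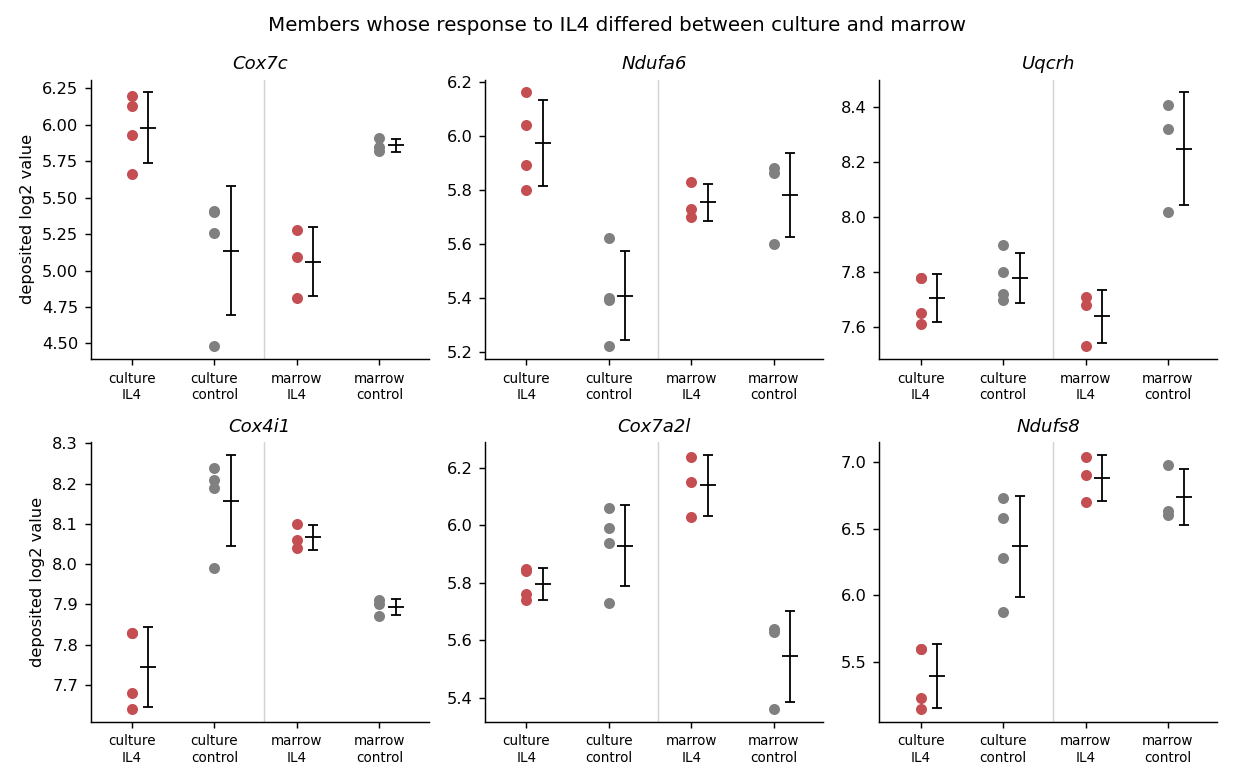
Deposited log2 values of the 6 genes whose IL4 response differed between culture and marrow (limma adjusted p below 0.05 as deposited), for each library. Red points are IL4 libraries and grey points controls, and the bars beside them give the mean and SD (n = 4 per group in culture, n = 3 in marrow). Vertical axes differ between genes and do not start at 0. Cox7c is higher in IL4 libraries in culture and lower in marrow, with no overlap in either.

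Cox7c had the largest difference, -1.64 ± 0.3 (adjusted p = 0.00165, limma) as deposited and -1.9 (adjusted p = 0.00089) after centring, since it rose in culture and fell in marrow. It was the only member called by limma in both experiments in opposite directions, and no left-out library took the adjusted p of the difference above 0.00552 as deposited or 0.00331 after centring. In the authors' unnamed test its q-values were 0.0629 in culture and 0.0551 in marrow, so that it passed 0.05 in neither. That test gave q-values below 0.05 for 6 members in culture and 1 in marrow, against 2786 and 698 of all genes. Ndufs8 differed by 1.12 ± 0.28 (adjusted p = 0.0102), with a fall in culture and no call in marrow, where it had 6.7, 7.04 and 6.9 in IL4 libraries, against 6.98, 6.63 and 6.6 in controls. These marrow groups overlapped (0.14 ± 0.16, adjusted p = 0.578). Cox7a2l differed by 0.73 ± 0.18 (adjusted p = 0.0085) and Cox4i1 by 0.59 ± 0.14 (adjusted p = 0.0084) as deposited, but after centring by 0.47 (adjusted p = 0.0855) and 0.33 (adjusted p = 0.112). For Cox7c, Ndufs8, Cox7a2l and Cox4i1 the difference as deposited held without any single library, whereas the centred adjusted p of Ndufs8 was 0.052 to 0.0686 without any of 8 of the 14 libraries.

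As deposited, the difference calls of Ndufa6 and Uqcrh depended more on single libraries, while after centring both held when any single library was left out. Ndufa6, which rose in culture, had 5.83, 5.73 and 5.7 in marrow IL4 libraries, against 5.6, 5.86 and 5.88 in controls. The groups overlapped there (-0.03 ± 0.15, adjusted p = 0.926, limma), and the difference was -0.59 ± 0.19 (adjusted p = 0.0386). That adjusted p was 0.0501 to 0.0881 when any library other than culture IL4 libraries 2 and 4, culture control library 4 and marrow control library 1 was left out, and 0.0109 after centring. Uqcrh, which fell in marrow, had 7.78, 7.61, 7.65 and 7.78 in culture IL4 libraries, against 7.8, 7.72, 7.7 and 7.9 in controls, with overlap (-0.08 ± 0.1, adjusted p = 0.583). Its difference was -0.53 ± 0.16 (adjusted p = 0.0284), with an adjusted p of 0.0509 to 0.0773 without culture IL4 library 1, culture control library 2 or 3, marrow IL4 library 2 or marrow control library 2 or 3, and 0.00593 after centring.

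**Figure D4:**
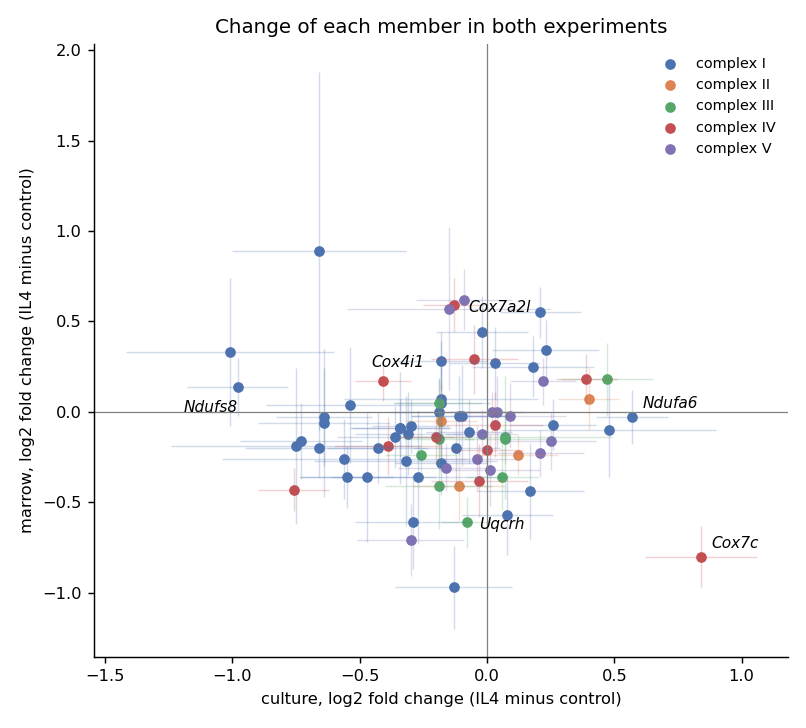
Log2 fold change (IL4 minus control) of each of the 78 genes in culture (horizontal) and in marrow (vertical), as deposited, coloured by complex, with lines of 1 standard error. The 6 genes whose responses differed are named. Cox7c lies at 0.84 in culture and -0.8 in marrow, apart from the other genes.

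Other genes of the pathway come from lists that do not overlap with the members. Of all 9474 genes, 40.5% were called in culture and 18.2% in marrow as deposited, and 27.1% and 18.4% after centring. Of 34 assembly and regulatory factors measured for all complexes, 2 rose and 5 fell in culture as deposited, and 4 rose and 0 fell after centring. Tmem126b, needed to assemble complex I, rose by 1.15 (adjusted p = 0.00629, limma), and Cox17, a copper chaperone of complex IV, by 0.49 (adjusted p = 0.0343), while Bcs1l (-1.38), Cox15 (-0.66), Coa4 (-0.64), Atpif1 (-0.45) and Acad9 (-0.73) fell as deposited, with none of these 5 falling after centring. In marrow 1 gene of this list rose, Higd1a (0.69, adjusted p = 0.0363, limma), and 3 fell, Cox20 (-1.13), Pet100 (-1.06) and Acad9 (-1.27). Of these, Cox20 did not pass after centring (adjusted p = 0.0622). Of 14 genes for electron carriers and their supply, none was called in culture as deposited, and Etfb, a subunit of the flavoprotein that brings electrons from fatty acid oxidation, rose in marrow by 0.98 ± 0.17 (adjusted p = 0.00454, limma), as did Coq3 of ubiquinone synthesis (1.01, adjusted p = 0.0326). In culture Etfb changed by 0.22 as deposited (adjusted p = 0.366) and 0.58 after centring (adjusted p = 0.0321).

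Of 11 genes that control mitochondrial biogenesis and DNA, 3 fell in culture as deposited and none rose, while 32.6% of all genes fell and 7.96% rose. Polg, the polymerase that copies mitochondrial DNA, fell by 1.31 (SE 0.17, adjusted p = 0.0003, limma) in culture and by 0.64 (adjusted p = 0.0246) in marrow, and by 0.94 (adjusted p = 0.0019) and 0.53 (adjusted p = 0.0386) after centring. Nrf1 fell by 0.61 (adjusted p = 0.0411) and Gabpb1, a subunit of GABP, by 0.78 (adjusted p = 0.0458) in culture as deposited, and neither passed after centring. Of 4 inner membrane carriers measured, Slc25a5, which exchanges ATP for ADP, rose in culture (0.47, adjusted p = 0.013, limma), and Ucp2, an uncoupling protein homologue, fell in marrow (-0.45, adjusted p = 0.0347), although not after centring (adjusted p = 0.0813).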

How the data were processed

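RNA was sequenced from 8 culture and 6 marrow libraries. Per the labels' protocols, RNA came from RNeasy Micro columns and libraries from the TruSeq RNA kit v2. The submitters' processing notes name TopHat2 2.0.13, bcl2fastq and mm10. How reads were counted, with which strand setting, filter and normalization, is not given in the sources used here. The value of each gene and library was deposited by the authors on a log2 scale. The deposited tables also hold the authors' q-value and p-value of each gene, which come from a test that is not named, and a linear fold change, whose values in culture are closer to 1 than the library values give and which is not used. Whole reads were recovered from the values for 9450 genes (99.7%).

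limma 3.58.1 (R 4.3.3) with a variance trend was fitted to the log2 values of each table (residual degrees of freedom 6 in culture, 4 in marrow) and to all 14 libraries for the difference of responses (10). No genes were filtered, and Benjamini-Hochberg adjustment covered 9474 genes. All tests are two-sided. The fits were run on simulated reads with known changes, a common spread, no outlying libraries and no shift of all genes. That run does not bear on such features of these data. The members and gene lists were chosen with earlier results of these data known. Some genes are named with their library values in culture, in marrow or in both. These were 12 listed by symbol and up to 2 called members of each complex and direction with the smallest p in each comparison. The 4 members with the smallest p for the difference were added. Other members were added after their values were seen, such as Ndufc2, given with its culture values, and Ndufb3, Ndufa5 and Atp5g3, given with fewer values. Words of 50 bases of the members' transcripts were looked up in all GENCODE vM21 transcripts. No 2 libraries of a group differed by as little as sampling noise. Alternatives were centring of each library on its median, quantile normalization, no variance trend, leaving out genes under the 25th percentile of level, voom on the reads, log2 of scaled reads with 1 read added, a z test of the difference, a replicate block, the subunits alone and leaving out each library.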

Additional observations from a re-analysis of the deposited data

Results flagged for a closer look

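The IL4 response of 6 of the 78 members differed between marrow and culture as deposited by a test of the difference itself (limma interaction over 14 libraries, marrow minus culture), while 23.1% of all genes were called. The members were Cox7c (-1.64, adjusted p = 0.00165), Ndufs8 (1.12, adjusted p = 0.0102), Cox7a2l (0.73, adjusted p = 0.0085), Cox4i1 (0.59, adjusted p = 0.0084), Ndufa6 (-0.59, adjusted p = 0.0386) and Uqcrh (-0.53, adjusted p = 0.0284). After centring, Cox7a2l (limma adjusted p = 0.0855) and Cox4i1 (0.112) did not pass. As deposited, the call of Ndufa6 was lost without any 1 of 10 libraries and that of Uqcrh without any 1 of 6.

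Dixon's criterion weighs a gap against the range of the 4 values, and chance meets it in about 1 of 20 groups. By it, a single library lay apart below the other 3 in 7 of the 156 groups of 4 culture libraries. In culture IL4 libraries the flagged values were Ndufa12 in library 3 (log2 value 1.45, against 1.52 to 1.53 in the others, a small gap at 8 reads), Ndufa5 in library 2 (1.61, against 3.31 to 3.6, with 5 reads) and Uqcrb in library 1 (1.14, against 2.6 to 2.72, with 4 reads). In culture controls they were Cox7c in library 3 (4.48, against 5.26 to 5.41) and, in library 4, Ndufa1 (1.99, against 3.87 to 4.06, with 6 reads), Ndufa4 (8.2, against 8.61 to 8.66) and Ndufab1 (3.07, against 3.41 to 3.45).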

How the results depend on the processing

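As deposited, 10 members were called in culture (4 rose, 6 fell, median -0.13), 8 in marrow (3 rose, 5 fell, median -0.11) and 6 for the difference of responses (3 higher, 3 lower). Centring gave 17 calls in culture (15 rose, 2 fell, median 0.23), 3 falls and a median of -0.01 in marrow, and 1 higher and 8 lower differences. Of all genes, 40.5% were called in culture, 18.2% in marrow and 23.1% for the difference as deposited, and 27.1%, 18.4% and 18.9% after centring. For the settings that follow, no share of all genes stands beside the counts. Those counts describe the dependence on processing and are not results about the members. Quantile normalization gave 9 rises, 2 falls and a median of 0.19 in culture, a median of -0.01 in marrow and 5 lower differences. Without a variance trend, marrow had 3 calls (0 rises, 3 falls) and 1 difference was lower. In culture, replicate numbers gave no sign of pairing. There the correlation of deviations was -0.045 to 0.022 for same-numbered libraries and -0.0339 to 0.0331 for the others. In marrow it was 0.0264 to 0.059 for same-numbered libraries, and each IL4 library correlated best with the control of its own number. Whether the marrow libraries were paired is not known. With the number as a block, 3 members rose and 5 fell in culture and 3 rose and 4 fell in marrow. With the block and centring together, 10 rose and 0 fell in culture (median 0.23), and 5 were called in marrow (2 fell, median -0.01). Leaving out a library gave 6 to 15 calls in culture (2 to 4 rises, 3 to 12 falls, median -0.29 to -0.07), 2 to 5 in marrow (0 to 2 rises, 1 to 5 falls, median -0.18 to -0.06) and 4 to 7 differences (3 to 4 higher, 1 to 3 lower). The 15 calls, the 12 falls and the median of -0.29 in culture, and the 7 differences, come from leaving out both libraries numbered 4, while leaving out either gave 11 calls. Only 6 members were called in culture without control library 2, and 2 in marrow without control library 2. With centring the ranges were 9 to 14 in culture (9 to 12 rises, 0 to 2 falls, median 0.11 to 0.29), 1 to 5 in marrow (1 to 3 rises, 0 to 2 falls, median -0.08 to 0.03) and 4 to 9 differences (0 to 1 higher, 3 to 8 lower). Without both libraries numbered 4 and with centring, 11 rose and 2 fell in culture, and 1 difference was higher and 6 were lower. With centring, the culture median was 0.25 without IL4 library 1, 0.17 without IL4 library 4, 0.24 without control library 1, 0.28 without control library 3 and 0.22 without control library 4, and the marrow median was 0.02 without IL4 library 1. Centring with libraries left out, and leaving out both libraries numbered 4, were chosen after seeing the data. Uqcrh in culture, -0.08 as deposited, reached 0.36 with centring and without control library 4, and 0.34 with centring and without both libraries numbered 4. For the filter on low values, voom, the added read, the z test and the subunits alone, no count differed by more than 1.5 times. Of 1242 recomputed values of single members, 1045 kept direction and side of the threshold, 120 lost a call, 75 gained one and 2 reversed, and 160 sign changes that were called in neither setting are counted with the first. The cause of these shifts was not tested. At 18 to 44 reads, as for Ndufs8 in culture, or 9 to 27, as for Ndufc1 in marrow, counting error limits the precision.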
